A study of Mus musculus with 3 samples.

Results

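The genes described are the serpins, the Kazal-type inhibitors (Spink), the whey acidic protein domain genes (Wfdc), the tissue inhibitors of metalloproteases (Timp) and the alpha-2-macroglobulin genes (A2m and A2ml1). They were picked out by gene symbol, with earlier results of these data known. In all 92 genes were found, each read by 1 transcript cluster (a set of probes designed against 1 gene). The array holds 22206 clusters, of which 19572 carried a gene symbol.

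The samples were alveolar type 2 (AT2) cells, the surfactant-producing progenitor cells of the alveolus, from female Sftpc/GFP mice (CBA/Ca × C57BL6J) that were 9 to 11 weeks old. All mice carried a GFP transgene that reports Sftpc. Besides AT2 cells, some distal airway cells of this line are dimly green. Mice inhaled mainstream cigarette smoke (CS) through the nose in sessions of 60 minutes, 5 days of each smoke week, in 3 weeks of a 5-week protocol, or breathed air. The smoke weeks of continuous CS were consecutive and those of intermittent CS alternated with weeks of air. Lungs were taken 24 h after the last smoke, the air controls were of the same age, and cells were sorted for high GFP and for high EpCAM, which marks epithelium. Cells of 3 mice were pooled per exposure and hybridized to 1 GeneChip Clariom S array.

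With 1 array per exposure no test of the exposure could be made, and differences carry no error or p-value. Values are log2 signals as deposited, and named genes are not ranked by level, because probes differ in brightness. The calls against the receptor level, defined below, and the summed signals of marker lists do bring signals of different genes together. Both are limited by that difference in brightness. Where 3 values follow a gene, they stand in the order air, continuous CS and intermittent CS. Clusters of 1414 olfactory and vomeronasal receptor genes served as a measure of signal without expression, and their 95th percentile, here called the receptor level, was 5.19 with air, 5.15 after continuous CS and 5.14 after intermittent CS. Between arrays, 99% of these receptor clusters lay within 1.68-fold for intermittent against continuous CS, 1.85-fold for continuous CS against air and 1.76-fold for intermittent CS against air. Array medians were 5.66 to 5.70. All 16 of 16 AT2 markers lay above the receptor level, with a median difference of 0.00 from air on the continuous CS array and of 0.00 on the intermittent CS array. Of these markers 5, Sftpc among them, stood at the highest value of the table on every array, where a difference could not be read. Hc, the gene of complement C5, was 2.19-fold and 1.85-fold below air.

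Protease inhibitors set how far a secreted or released protease can act. Serpins trap serine proteases in a single irreversible reaction through an exposed loop, Kazal and whey acidic protein domains block the active site reversibly, alpha-2-macroglobulins enclose proteases of every class, and Timps occupy the catalytic zinc of metalloproteases. In the lung the balance between neutrophil elastase and its inhibitors is the textbook example, because the loss of alpha-1-antitrypsin leads to emphysema.

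Of the 92 genes, 31 lay above the receptor level on all 3 arrays, 2 on some of them and 59 on none. The 33 genes above it on any array were 35.9% of the group, compared with 57.9% of all clusters. Serpins contributed 20 of 55 genes, with 7 of 20 in clade A, the mostly secreted plasma serpins, and 7 of 26 in clade B, the mostly intracellular ones. The Wfdc genes contributed 7 of 18, the Spink genes 3 of 13, the Timp genes 2 of 4, and the alpha-2-macroglobulin genes 1 of 2. The plot of subfamily counts shows these shares. Among the 59 genes that stayed below the level were Serpinc1, which encodes antithrombin, at 3.34 on each array, and A2m at 3.92 with air, 3.68 after continuous CS and 3.89 after intermittent CS. Timp1 had 2.93, 3.14 and 3.06 in the same order, and Timp4 had 4.06, 3.89 and 4.0. None of the 59 was 2-fold apart between any pair of arrays. Just outside the level were Serpina11 at 4.94, 4.98 and 5.10 and Serpinb10 at 4.73, 5.0 and 5.0. Just inside it were Serpina3j at 5.29 on each array and Wfdc1 at 5.23, 5.35 and 5.18. The same value to the last decimal on all 3 arrays was held by 13 of the 92 genes (14.1%) and by 13.6% of all clusters, and a difference could not be read in these.

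**Figure D1:**
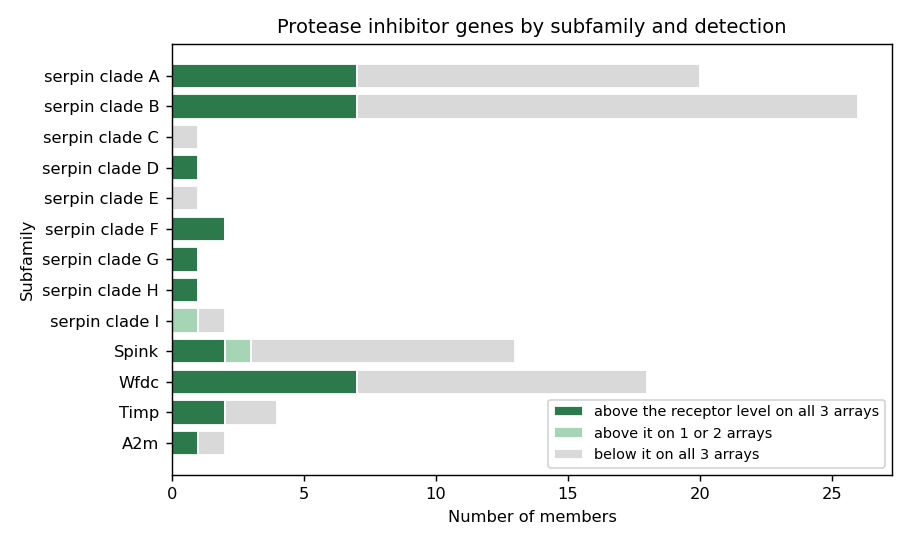
Number of genes in each subfamily (horizontal axis, genes), split into those above the receptor level on all 3 arrays, on some of them and on none. Clade B has the most genes, 26, and 19 of them lay on no array above the level.

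Promoters show the DNA in front of genes that differed between arrays. Of the 8 genes at least 1.5-fold apart between a pair of arrays and above the receptor level on both, 5 matched a promoter in RefSeq (GRCm38.p6), and Serpina10, Spink5 and Serping1 did not. The bases upstream of the annotated start are printed for the 3 of these that were 2-fold higher after continuous CS than with air and for A2ml1, which lay on opposite sides of air on the CS arrays, in lower case with any motif in capitals. They lie at chr12:104406458-104406707 on the plus strand for Serpina3n, chr16:17331121-17331370 on the plus strand for Serpind1, chr11:118355412-118355661 on the minus strand for Timp2 and chr6:128581607-128581856 on the minus strand for A2ml1.
Serpina3n: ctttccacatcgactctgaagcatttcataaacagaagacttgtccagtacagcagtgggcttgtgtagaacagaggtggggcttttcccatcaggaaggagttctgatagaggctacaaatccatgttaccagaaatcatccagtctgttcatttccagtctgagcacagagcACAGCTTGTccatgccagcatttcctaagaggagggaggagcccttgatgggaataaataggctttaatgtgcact
Serpind1: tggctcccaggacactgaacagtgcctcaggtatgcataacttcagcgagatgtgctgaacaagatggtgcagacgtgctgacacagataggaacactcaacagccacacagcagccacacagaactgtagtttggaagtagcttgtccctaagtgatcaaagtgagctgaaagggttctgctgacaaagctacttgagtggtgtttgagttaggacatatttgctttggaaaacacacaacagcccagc
Timp2: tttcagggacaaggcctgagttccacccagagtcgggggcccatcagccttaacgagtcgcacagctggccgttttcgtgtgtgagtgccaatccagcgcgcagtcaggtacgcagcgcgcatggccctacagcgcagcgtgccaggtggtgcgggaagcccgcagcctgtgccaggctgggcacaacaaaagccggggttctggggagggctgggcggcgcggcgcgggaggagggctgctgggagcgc
A2ml1: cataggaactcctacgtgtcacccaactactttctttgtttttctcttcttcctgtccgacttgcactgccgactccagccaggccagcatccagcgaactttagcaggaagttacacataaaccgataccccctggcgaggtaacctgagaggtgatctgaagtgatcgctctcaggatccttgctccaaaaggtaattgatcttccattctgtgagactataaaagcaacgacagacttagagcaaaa
The motifs searched on both strands were CACGTG (E-box, found in 7.15% of 32851 promoters), TTATGTAA (D-box, 0.938%), ACANNNTGT (core of the glucocorticoid response element, 6.85%), GGGACTTTC (NF-kB, 0.353%), TGACTCA (AP-1, 5.20%) and TTCCNGGAA (STAT, 1.15%). Of the 5 promoters, 1 held any of them. It was that of Serpina3n, with the glucocorticoid response element core ACAGCTTGT at 76 to 68 bases upstream of the start. The match is a description of the letters and not of binding.

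At 2-fold, the comparison that the study was designed for, intermittent against continuous CS, had 3 of the 92 genes higher (3.26%, against 0.117% of all clusters) and 1 lower (1.09%, against 0.635%). The genes higher were A2ml1, Spink5 and Serpini1, and the gene lower was Serpina10. Continuous CS against air had 3 genes higher (3.26%, against 1.13% of all clusters), which were Serpina3n, Timp2 and Serpind1, and 1 lower (1.09%, against 0.473%), Serpina10. Intermittent CS against air had 2 genes higher (2.17%, against 0.833%), Serpina3n and Spink5, and 1 lower (1.09%, against 0.716%), again Serpina10. Both comparisons with air use the same air array. The counts are of 1 to 3 genes and describe these arrays. From the same arrays the study had already named negative regulation of peptidase activity among the functions of genes higher after intermittent CS. The counts for intermittent against continuous CS, here and at 1.5-fold, are therefore no independent support for that result.

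At 1.5-fold, among the 33 genes above the receptor level on any array, intermittent CS was higher than continuous CS for 5 (15.2%, against 1.45% of clusters chosen the same way) and lower for 1 (3.03%, against 3.55%). Continuous CS was higher than air for 4 (12.1%, against 5.64%) and lower for 3 (9.09%, against 3.69%). Intermittent CS was higher than air for 6 (18.2%, against 4.98%) and lower for 1 (3.03%, against 4.69%). The median log2 difference of the 33 genes was 0.00 for intermittent against continuous CS, 0.00 for continuous CS against air and 0.10 for intermittent CS against air, and that of all clusters so chosen was 0 in each. Of the 33 genes 16 lay above 0 and 14 below for intermittent against continuous CS, 14 and 13 for continuous CS against air, and 18 and 9 for intermittent CS against air. Among all clusters so chosen the last split was 5339 and 5132. The counts include Serpini1, below the receptor level with air and after continuous CS, and Spink1, below it after continuous CS. Serpini1 entered the 33 genes through the intermittent CS array alone, so its count as higher there follows in part from that choice.

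**Figure D2:**
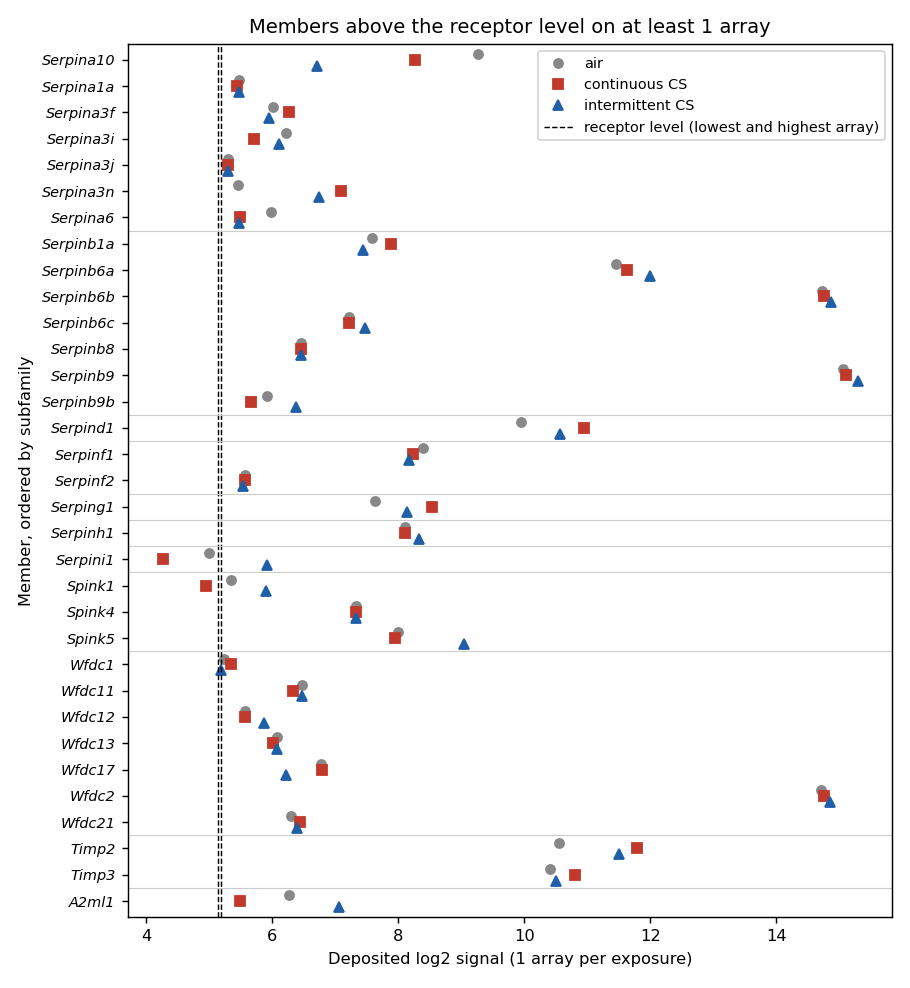
Log2 signal (horizontal axis) of the 33 genes above the receptor level on any array, 1 row per gene and 1 point per array for air, continuous CS and intermittent CS, ordered by subfamily. The points of most genes lie together, and those of Serpina10, Serpina3n, Timp2, A2ml1, Spink5 and Serpini1 are spread.

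Serpina10 encodes the protein Z-dependent inhibitor of coagulation factors Xa and XIa. Its log2 signal was 9.27 with air, 8.26 after continuous CS and 6.70 after intermittent CS. The air array was thus highest and the intermittent CS array lowest, all above the receptor level. It was 2.01-fold lower after continuous CS than with air, 5.92-fold lower after intermittent CS than with air and 2.95-fold lower after intermittent than after continuous CS. The first of these was -0.94 on the log2 scale with an offset of 32 on the linear scale, under 2-fold. Of its targets, the factor X gene F10 had 5.92, 6.06 and 6.06 in the same order, and the factor XI gene F11 lay below the receptor level at 4.78 on each array. Its neighbor on the chromosome is Serpina6, which encodes the corticosteroid-binding globulin of plasma. Serpina6 had 5.97 with air, 5.48 after continuous CS and 5.47 after intermittent CS, so both CS arrays lay below air, by 1.40-fold and 1.41-fold. Both differences lay inside the range that held 99% of the receptor clusters, 1.85-fold and 1.76-fold.

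Serpina3n, a mouse homolog of human alpha-1-antichymotrypsin and an acute-phase gene, was instead higher after smoke. Its log2 signal was 5.46 with air, close to the receptor level, 7.09 after continuous CS and 6.74 after intermittent CS. Both CS arrays were above air, by 3.10-fold and 2.43-fold, and differed from each other by 1.28-fold. With values raised by an offset of 32 on the linear scale, the difference between intermittent CS and air was 0.87 on the log2 scale, under 2-fold. In the same arrays the median of the endothelial markers differed from air by 0.94 after continuous CS and by -0.02 after intermittent CS. That of the fibroblast and smooth muscle markers differed by 0.87 and 0.48, above air on both CS arrays. The part of other cells in the Serpina3n difference was not tested. In sorted bulk cells a change in the number of cells of a type and a change in RNA per cell cannot be told apart. Of the same gene cluster, Serpina3f and Serpina3i lay above the receptor level and did not share the pattern of Serpina3n. Serpina3f had 6.01, 6.26 and 5.95, highest after continuous CS. Serpina3i had 6.22, 5.71 and 6.10, lowest after continuous CS. Serpina3j was at 5.29 on each array, so a difference could not be read. Below the receptor level were Serpina3a at 3.34, 3.54 and 3.40 and Serpina3b at 3.53, 3.68 and 3.06. For Serpina3c, Serpina3g, Serpina3k and Serpina3m no value was found by symbol. The Serpina3 genes are close paralogs, and probes may read more than one of them.

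Serpina1a, 1 of the mouse genes for alpha-1-antitrypsin, the inhibitor of neutrophil elastase, had 5.47 with air, 5.44 after continuous CS and 5.47 after intermittent CS. The largest difference was 1.02-fold. The other Serpina1 genes on the array lay below the receptor level, and since the Serpina1 genes are near-identical copies their separate values are uncertain. The elastase gene Elane lay below the receptor level as well, at 4.61, 4.84 and 4.79, as did the proteinase 3 gene Prtn3 at 4.19, 4.16 and 4.16.

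The clade B serpins, which protect cells from proteases that leak inside, differed by less than 1.5-fold between all arrays for 6 of 7 genes above the receptor level. Serpinb9, an inhibitor of granzyme B, had 15.05 with air, 15.11 after continuous CS and 15.29 after intermittent CS, within 1.18-fold. Serpinb6a, whose human counterpart inhibits cathepsin G, had 11.45, 11.62 and 12, highest after intermittent CS by 1.46-fold over air and by 1.30-fold over continuous CS. Serpinb6b had 14.73, 14.75 and 14.87, within 1.11-fold. These genes and Serpinb6c, at 7.22, 7.21 and 7.47, all had their highest value on the intermittent CS array, although none of them was 1.5-fold apart. Serpinb9b was also highest there, with 5.92 on air, 5.66 after continuous CS and 6.38 after intermittent CS. It was 1.64-fold higher after intermittent than after continuous CS and 1.37-fold higher than with air. Serpinb6b, Serpinb9 and Serpinb9b are consecutive genes. Of the targets, Gzmb (granzyme B) lay below the receptor level at 3.91, 3.85 and 3.91 and Ctsg (cathepsin G) at 3.14 on each array.

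Serpinb1a, an inhibitor of neutrophil elastase, cathepsin G and proteinase 3, had a different order. Its values were 7.58 with air, 7.88 after continuous CS and 7.44 after intermittent CS, and continuous CS was 1.36-fold above intermittent CS. Serpinb8, whose human counterpart inhibits furin, was at 6.45 on each array, while Furin had 9.63, 9.62 and 9.81.

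Serpind1 encodes heparin cofactor II, a thrombin inhibitor. Its values were 9.94 with air, 10.95 after continuous CS and 10.57 after intermittent CS. Both CS arrays were above air, by 2.01-fold and 1.55-fold. The intermittent CS difference lay inside the range that held 99% of the receptor clusters, 1.76-fold. The 2.01-fold difference stood at the threshold, and it was 0.99 on the log2 scale with each array centred on its own median and also 0.99 with the offset. The thrombin precursor gene F2 lay below the receptor level, at 4.72 on each array.

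Serping1 encodes the C1 inhibitor, which blocks the proteases that start the classical complement pathway and also plasma kallikrein. Its values were 7.62, 8.54 and 8.14, so that continuous CS was 1.89-fold and intermittent CS 1.44-fold above air. The intermittent CS difference lay inside the range that held 99% of the receptor clusters, 1.76-fold. The genes of the complement proteases it inhibits differed in direction. C1ra had 8.73 with air, 10.10 after continuous CS and 9.94 after intermittent CS, which were 2.57-fold and 2.30-fold above air. C1s1, named after its values were seen, had 6.73, 7.89 and 7.35, which were 2.25-fold and 1.54-fold above air. Masp2, of the lectin pathway and likewise named afterwards, was lower after smoke, at 7.76, 7.51 and 7.26, and Masp1 lay below the receptor level at 3.83, 3.88 and 3.83.

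Clades F, H and I hold serpins with other tasks. Serpinf1 encodes the antiangiogenic factor PEDF, which does not inhibit proteases, and had 8.39, 8.23 and 8.16, within 1.17-fold. Serpinf2, its neighbor, encodes alpha-2-antiplasmin and had 5.57, 5.57 and 5.54. Serpinh1 encodes the collagen chaperone Hsp47 and had 8.11, 8.11 and 8.33. The plasminogen gene Plg, whose product alpha-2-antiplasmin inhibits, lay below the receptor level at 4.10, 4.14 and 4.10.

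Serpini1 encodes neuroserpin, an inhibitor of tissue plasminogen activator. Its values were 4.99 with air and 4.26 after continuous CS, both below the receptor level, and 5.91 after intermittent CS. Only the intermittent CS array lay above the level. Taken against the receptor level of the dimmer array, intermittent CS was at least 1.69-fold higher than continuous CS and at least 1.65-fold higher than air. The measured values were 3.13-fold apart between the CS arrays, and that count at 2-fold rests on a value below the level. The tissue plasminogen activator gene Plat lay below the level, at 4.21, 4.27 and 4.27.

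A2ml1 encodes a broad protease trap of the alpha-2-macroglobulin family. Its values were 6.27 with air, 5.49 after continuous CS and 7.05 after intermittent CS, all above the receptor level. Air was intermediate, since continuous CS was 1.72-fold lower and intermittent CS 1.71-fold higher than air. Both differences from air lay inside the range that held 99% of the receptor clusters, 1.85-fold and 1.76-fold. Between the CS arrays the difference was 2.95-fold, or 1.56 on the log2 scale, with the continuous CS value near the receptor level. With the offset of 32 it was 1.10, still above 2-fold. The related gene Pzp, the neighbor of A2ml1 on the chromosome, lay below the level at 4.08, 4.14 and 4.14.

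Spink5 encodes LEKTI, the multidomain Kazal inhibitor of skin kallikreins. Its values were 7.99 with air, 7.94 after continuous CS and 9.04 after intermittent CS. Air and continuous CS lay within 1.04-fold, and intermittent CS stood apart by 2.14-fold from continuous CS and 2.06-fold from air. With the offset of 32 the difference from air was 0.96 on the log2 scale. Of the kallikreins that LEKTI inhibits, Klk5 lay below the level at 3.22 on each array. Klk7 had 5.45, 5.24 and 5.58, and Klk14 had 5.31, 5.56 and 5.64. A2ml1 and Spink5 are known from stratified epithelium, and the part of such cells in their differences was not tested. Of 9 measured markers of basal and squamous cells 0 lay above the receptor level on any array. The log2 summed signal of these markers was 7.14, 7.20 and 7.18, a sum of values that each lay below the level.

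Spink1, the pancreatic secretory trypsin inhibitor, had 5.35 with air, 4.94 after continuous CS and 5.90 after intermittent CS. The continuous CS value lay below the receptor level, so intermittent CS was at least 1.68-fold higher than continuous CS, and it was 1.47-fold higher than air. The trypsinogen gene Prss1 lay below the level at 3.43, 3.43 and 4.05. Spink4, a Kazal gene known from goblet cells of the gut, was at 7.33 on each array.

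Thus 5 genes of different subfamilies, A2ml1, Spink1, Spink5, Serpini1 and Serpinb9b, were at least 1.5-fold higher after intermittent than after continuous CS. For this pair a fold of 1.68 took in 99% of the differences seen in receptor genes, and Serpinb9b, at 1.64-fold, did not exceed it. The minimum folds of Spink1 and Serpini1, 1.68 and 1.69, stood at that limit. A2ml1 and Spink5, at 2.95-fold and 2.14-fold, were beyond it. That limit is the spread of receptor clusters between single arrays and does not measure variation between pools of mice. For A2ml1 the continuous CS array also lay 1.72-fold below air, while for Spink5 it lay within 1.04-fold of air.

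**Figure D3:**
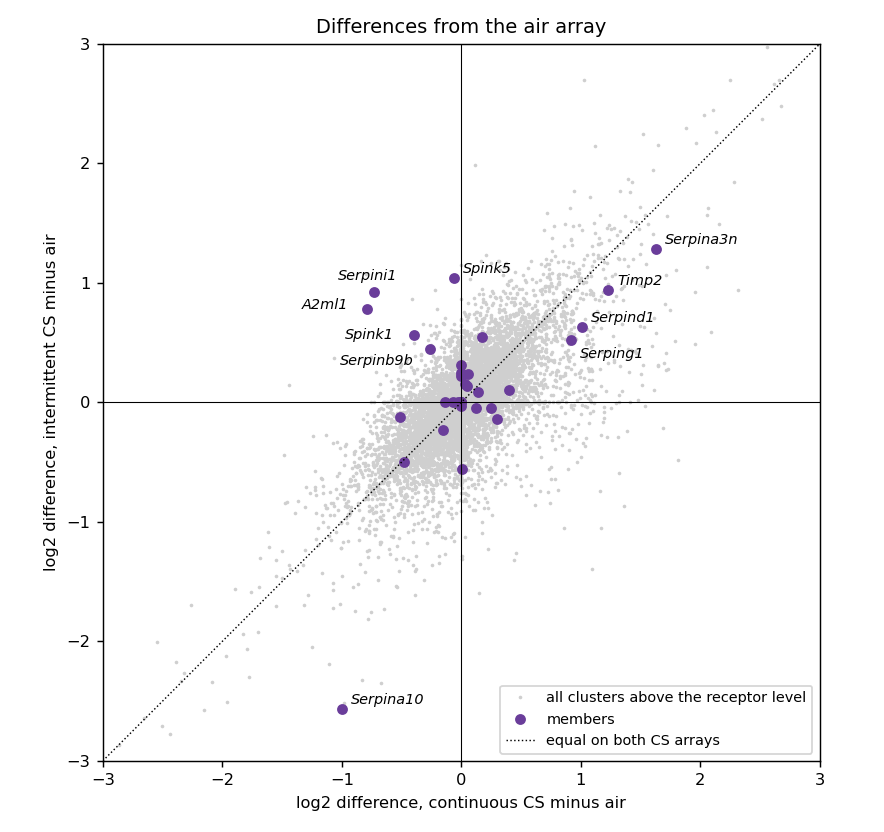
Log2 difference from the air array after continuous CS (horizontal axis) and intermittent CS (vertical axis) for the 33 genes (large points) and all other clusters above the receptor level on any array (small points). Both axes share the air array and end at 3 on the log2 scale, with 13 clusters beyond them; Serpina3n, Timp2, Serpind1 and Serping1 lie below the diagonal of equal values and A2ml1, Serpini1, Spink5, Spink1 and Serpinb9b above it.

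Timp2 inhibits matrix metalloproteases and, with Mmp14, takes part in activating Mmp2. Its values were 10.55 with air, 11.78 after continuous CS and 11.50 after intermittent CS. Both CS arrays stood above air, by 2.35-fold and 1.92-fold, and differed from each other by 1.22-fold. Timp3, which binds the matrix and also inhibits Adam17, had 10.40, 10.80 and 10.50, within 1.32-fold. Among the targets, Mmp14 was lower with CS, at 6.12, 5.73 and 5.46, and Mmp2 had 4.65, 5.68 and 5.0, above the receptor level after continuous CS alone. Adam17 had 12.83, 12.22 and 12.49, with continuous CS 1.52-fold below air. Mmp12, the macrophage elastase, had 9.39, 10.25 and 9.43, with continuous CS 1.82-fold above air and intermittent CS within 1.03-fold of it.

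Among the Wfdc genes, none was 1.5-fold apart between any pair of arrays. Wfdc2, a secreted epithelial protein gene, had 14.71, 14.75 and 14.85, within 1.10-fold. Wfdc17, known from activated macrophages, had 6.77 with air, 6.78 after continuous CS and 6.21 after intermittent CS. The intermittent CS array alone was lower, by 1.47-fold from air and 1.48-fold from continuous CS. Wfdc12, an antibacterial gene, had 5.56, 5.56 and 5.87, Wfdc21 had 6.30, 6.44 and 6.39, and Wfdc1 had 5.23, 5.35 and 5.18. The chromosomal neighbors Wfdc11 and Wfdc13 had 6.47, 6.33 and 6.47 and 6.08, 6.01 and 6.08, so that air and intermittent CS were equal in both.

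Inhibitors outside these families and the proteases themselves were read from lists of known members. Of 37 other inhibitors 15 lay above the receptor level on any array. Between the CS arrays 1 was 2-fold lower after intermittent CS, against 0.635% of all clusters, with no other 2-fold difference. It was Spock2, a proteoglycan gene, at 8.75 with air, 9.56 after continuous CS and 8.02 after intermittent CS, which is also in the list of alveolar type 1 (AT1) markers. Spint1, an inhibitor of matriptase and of the activator of hepatocyte growth factor, had 14.77, 15.38 and 15.66, with intermittent CS 1.86-fold above air. Wfikkn1 had 6.15, 5.59 and 5.38, and Cst3, the secreted cathepsin inhibitor cystatin C, had 14.84, 14.53 and 14.25, both lowest after intermittent CS. The median log2 difference of the 15 was -0.15 between the CS arrays.

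Of 40 genes listed as serine protease targets 14 lay above the level and 0 were 2-fold apart in any comparison. The genes of this list with the largest differences were Prss8 (prostasin), at 14.26, 14.88 and 14.82, and Tmprss2, at 10.62, 10.03 and 10.11. The next was Mpo, a granule peroxidase in the list that is not a protease, at 5.65, 5.23 and 5.23. The last was the proprotein convertase gene Pcsk5, at 5.70, 5.58 and 5.32. The widest difference among these 4 genes was 1.53-fold, of Prss8.

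Plasminogen, coagulation and early complement genes held more 2-fold differences than the other protease and inhibitor lists. Of 32 measured, 18 lay above the level. After continuous CS 6 of the 32 were 2-fold higher than with air and 1 lower, against 1.13% and 0.473% of all clusters. After intermittent CS 2 were 2-fold higher than with air, against 0.833% of all clusters. Between the CS arrays 2 were 2-fold lower after intermittent CS, against 0.635% of all clusters. Plaur, the urokinase receptor gene, had 7.22, 8.86 and 7.53, so continuous CS alone stood apart, by 3.12-fold from air. F3, the tissue factor gene that starts coagulation, had 5.92, 7.52 and 7.33, with both CS arrays above air by 3.04-fold and 2.66-fold. F7, whose product tissue factor binds, had 7.10, 8.39 and 7.99, 2.45-fold and 1.86-fold above air. The median difference of the 18 genes was 0.19 for continuous CS against air and -0.05 for intermittent CS against air.

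Of 30 metalloproteases 13 lay above the level, and Mmp2 was the 1 gene whose measured values were 2-fold apart. Its air value lay below the level, and against the level it was at least 1.41-fold higher after continuous CS than with air. Of 14 lysosomal cathepsins and related enzymes 13 lay above the level. Lgmn (legumain) had 12.89, 13.87 and 13.97 and was 2.12-fold higher after intermittent CS than with air. Ctsa had 12.02, 12.82 and 12.88, and Ctsh, which trims surfactant protein precursors in AT2 cells, had 16.59, 17.05 and 17.23, both highest after intermittent CS. Ctss, known from antigen-presenting cells, had 9.64, 9.40 and 8.75, with intermittent CS 1.86-fold below air. The median difference of the 13 genes was 0.23 for continuous CS against air and 0.16 for intermittent CS against air, as drawn in the plot of list medians.

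**Figure D4:**
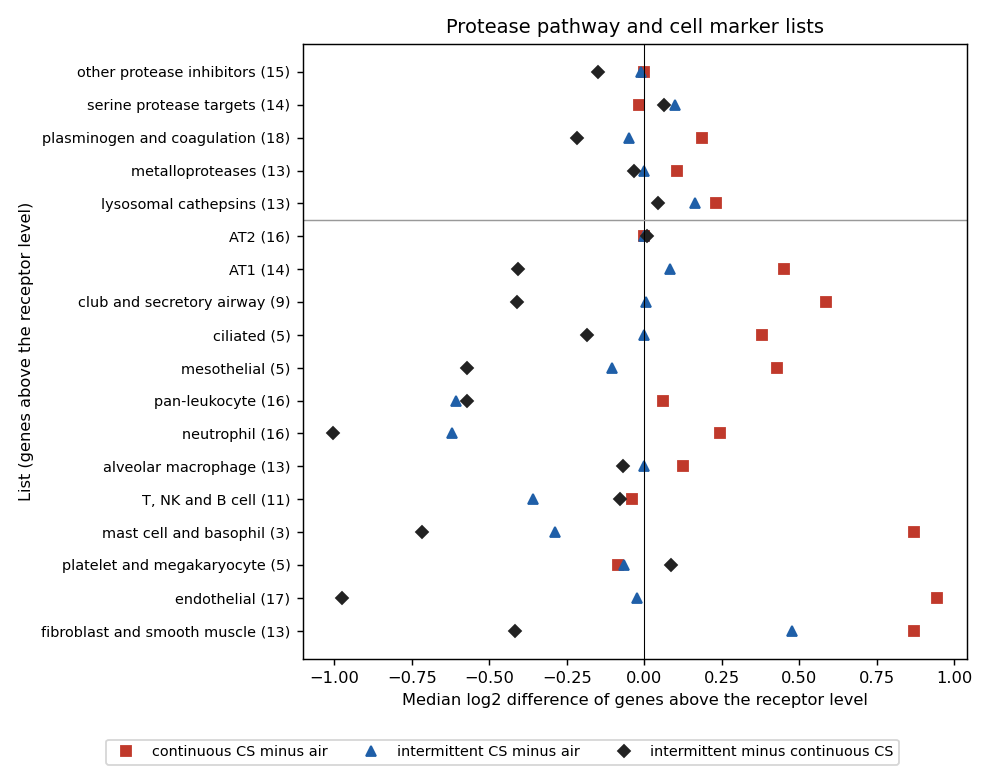
Median log2 difference (horizontal axis) of each protease and inhibitor list and each cell type marker list, over the genes above the receptor level on any array, for each pair of arrays; points carry no error because each exposure has 1 array. The protease lists lie near 0, while the endothelial list lies at 0.94 for continuous CS against air and -0.97 for intermittent against continuous CS, and the neutrophil list at -1.0 for the latter.

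Markers of other lung cells differed between these arrays too. Of 18 endothelial markers 17 lay above the receptor level, and 8 were 2-fold higher after continuous CS than with air and 0 after intermittent CS. The shares of all clusters were 1.13% and 0.833%. The median differences of the endothelial markers from air were 0.94 and -0.02. Their log2 summed signal was 13.68 with air, 14.82 after continuous CS and 13.59 after intermittent CS. Of 19 fibroblast and smooth muscle markers 13 lay above the level, with median differences from air of 0.87 and 0.48 and a log2 summed signal of 14.02, 14.97 and 14.07. Timp2, Timp3, Serpina3n, Serpind1 and Serping1 were also highest after continuous CS, and the part of these cells in their differences was not tested.

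Of 17 pan-leukocyte markers 16 lay above the level, with median differences of 0.06 for continuous CS and -0.61 for intermittent CS against air and a log2 summed signal of 15.51, 15.75 and 15.49. Of 21 neutrophil markers 16 lay above it, with medians of 0.25 and -0.62 and a log2 summed signal of 20.12, 20.05 and 20.06, which includes Lcn2, a gene that AT2 cells also express. Wfdc17 and Ctss were likewise lowest after intermittent CS, and the part of leukocytes in them was not tested. Of 14 AT1 markers 14 lay above the level, with medians of 0.45 and 0.08. The 9 of 15 club cell markers above it had medians of 0.59 and 0.01.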

How the data were processed

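AT2 cells pooled from 3 mice per exposure were measured on 1 GeneChip Clariom S array each, from 100 ng of RNA. Scans were analyzed by the authors in the Transcriptome Analysis Console, and the deposited table gives log2 signals, 1 per cluster and array. How they were summarized and normalized, and the software version, was not given in the sources used here. Precision is limited by the number of arrays.

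Groups came from the sample labels. Gene symbols came from the platform annotation, and 0 were changed by RefSeq (GRCm38.p6). The values were used as deposited. Differences were taken per cluster and counted at 2-fold, the threshold the study used, and at 1.5-fold among clusters above the receptor level. Where the dimmer of a pair of values lay under that level, the level replaced it and the fold is written as a minimum. No statistical test was made. Motifs were searched in RefSeq windows around each start, of which the 250 upstream bases are printed.

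The genes named are every member above the receptor level on at least 1 array and, of each protease list, the 4 genes above it with the largest difference. Elane, Prtn3, Ctsg, Gzmb, F2, F10, F11, Plat, Plg, Prss1, Klk5, Klk7, Klk14, Furin, C1s1, Masp1, Masp2, Hc, Pzp and the members named below the level were added after their values were seen. Members and lists were chosen with earlier results of these data known. Alternatives were other scalings, an offset, a floor, other thresholds and other receptor percentiles. Counting was tested on simulated data. The work used limma 3.58.1 in R 4.3.3 and pandas 2.3.3, numpy 2.4.6 and matplotlib 3.10.9 in Python 3.11.15.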

Additional observations from a re-analysis of the deposited data

Results flagged for a closer look

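A2ml1 and Serpini1 were singled out because the CS arrays lay on opposite sides of the air array, each by at least 1.5-fold. For A2ml1 the log2 difference from air was -0.785 with continuous CS and 0.776 with intermittent CS. Each of these, 1.72-fold and 1.71-fold, lay inside the range that held 99% of the receptor clusters, 1.85-fold and 1.76-fold. For Serpini1 it was -0.73 with continuous CS and 0.92 with intermittent CS, where the air and continuous CS values lay below the receptor level. The difference between the CS groups was not tested, since each has 1 array. With 1 array per exposure, a sample far from the others of its group could not be looked for.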

How the results depend on the processing

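The direction of none of the 11 differences of at least 2-fold changed under median centring, quantile normalization, cyclic loess or an offset of 32. Of the 44 values so obtained 38 stayed at 2-fold and 6 did not, and 6 of the differences were 2-fold throughout. Averaging several clusters per gene could change nothing, since each gene had 1 cluster, and a floor at the receptor level could change Serpini1 alone. The counts at other thresholds were made over all 92 genes, including those below the receptor level on every array, and not over the 33 above it. The number of genes higher was, at 1.5-fold and 3-fold, 5 and 1 for intermittent against continuous CS, 5 and 1 for continuous CS against air, and 6 and 0 for intermittent CS against air. The number lower was 3 and 0 for intermittent against continuous CS and 3 and 0 for continuous CS against air. With the offset, 0 genes were higher with intermittent CS than with air and 0 were lower with continuous CS than with air, an alternative that shrinks differences of dim genes by construction. With it, and with the floor, Serpini1 differed by 0.85 and 0.75 between the CS arrays on the log2 scale. With the 99th percentile of the receptor clusters in place of the 95th, 19 genes lay above the level on all 3 arrays. No paired analysis was possible because each exposure has 1 array, and leaving out an array would remove its exposure. Dim genes near the receptor level limit what can be read.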
